A study of Homo sapiens with 9 samples.

Results

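The SOX genes encode transcription factors that bind DNA through a high-mobility-group box, and 10 of them were examined here: SOX2, SOX4, SOX5, SOX6, SOX8, SOX9, SOX10, SOX11, SOX12 and SOX13. The members were taken by gene symbol, and all 10 were found among the 58381 genes of the count and FPKM tables. RNA was sequenced from the established Ewing sarcoma cell line TC-32, which carries the EWSR1::FLI1 fusion, in 3 groups of 3 libraries. RFP cells carried the lentiviral pLOC vector with a red fluorescent protein, and ETS1-Low and ETS1-High cells carried pLOC with an ETS1 cDNA, expressed at a lower and a higher level. Per the labels, transduced cells were selected with puromycin and sorted as single cells. The number of clones behind a group is not given, so a difference between groups and a difference between clones cannot be told apart. Nor is it given whether the libraries of a group came from separate cultures, so p-values measure only the spread between these libraries.

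SOX proteins bend DNA at short AT-rich sites and usually act with a partner factor. They are grouped by the similarity of their DNA-binding box. SOX2 belongs to SoxB1, which maintains neural progenitors and pluripotent cells. SOX4, SOX11 and SOX12 form SoxC, which acts in newly formed neurons and in mesenchyme. SOX5, SOX6 and SOX13 form SoxD, which lacks a known transactivation domain and modulates other SOX proteins. SOX8, SOX9 and SOX10 form SoxE, the factors of neural crest, glia and cartilage. Ewing sarcoma cells have been related to mesenchymal and neural crest precursors, in which several of these genes are active.

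Library totals ran from 39484704 to 46654734 expected counts, and the 10 SOX genes together held between 0.0381% and 0.0523% of them. ETS1 followed the labels, with 87 to 105 counts in RFP, 400 to 488 in ETS1-Low and 765.09 to 879 in ETS1-High libraries, vector and endogenous copies together. All 8 Ewing sarcoma markers examined had more than 3 counts in every group, and their summed level was 2575 to 2684 CPM (counts scaled to library size with TMM) in RFP, 3858 to 3923 in ETS1-Low and 3934 to 3944 in ETS1-High. Most of this sum and of its rise was CCND1, with means of 1547.9 CPM in RFP, 2518.3 in ETS1-Low and 2498.4 in ETS1-High. NKX2-2 had 89.5 CPM in RFP, 103.55 in ETS1-Low and 96.16 in ETS1-High, where its libraries overlapped with those of RFP. In FPKM it was level between RFP (49.5) and ETS1-High (49.4). Summed levels of 4 markers each of haematopoietic, endothelial, epithelial, melanocytic and myogenic cells lay between 0.0733 and 5.56 CPM. The endothelial sum went from 2.32 to 2.97 CPM in RFP to 4.97 to 5.56 CPM in ETS1-High, nearly all of it PECAM1, with CDH5, VWF and TEK at 6 counts or fewer in ETS1-High. The epithelial sum went from at most 0.41 CPM in RFP to 2.33 to 3.39 CPM in ETS1-High, mostly KRT5, while the haematopoietic, melanocytic and myogenic sums were highest in RFP. CD3E, TYR, MLANA and MYF5 had 0 counts in all libraries. The part of these levels in the results was not tested. These are bulk samples, in which fewer cells expressing a gene and less RNA per cell cannot be told apart.

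The DNA upstream of start sites was read for members in the RefSeq promoter table (GRCh38.p14), which held 6 of the 10: SOX2, SOX4, SOX5, SOX6, SOX12 and SOX13. Upstream windows of 250 bases are shown for SOX4 and SOX13, which were lower in both ETS1 groups, for SOX12, which moved least, and for an internal start of SOX6, which was higher in both. Sequences run 5′ to 3′ on the strand of the gene, and capitals mark GGAA on either strand (GGAA or TTCC), the core that ETS factors such as ETS1 and FLI1 recognise.
SOX4, chr6:21593501-21593750, plus strand: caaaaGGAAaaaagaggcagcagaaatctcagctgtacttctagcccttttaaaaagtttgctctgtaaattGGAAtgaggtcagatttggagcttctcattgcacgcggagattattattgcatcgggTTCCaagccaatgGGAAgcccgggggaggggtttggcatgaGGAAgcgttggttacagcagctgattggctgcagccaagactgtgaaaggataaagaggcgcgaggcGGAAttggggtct
SOX13, chr1:204072865-204073114, plus strand: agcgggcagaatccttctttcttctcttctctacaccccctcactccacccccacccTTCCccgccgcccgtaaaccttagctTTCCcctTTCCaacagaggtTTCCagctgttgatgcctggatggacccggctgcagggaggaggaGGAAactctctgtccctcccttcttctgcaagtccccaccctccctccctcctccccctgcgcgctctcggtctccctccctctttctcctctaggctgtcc
SOX12, chr20:325302-325551, plus strand: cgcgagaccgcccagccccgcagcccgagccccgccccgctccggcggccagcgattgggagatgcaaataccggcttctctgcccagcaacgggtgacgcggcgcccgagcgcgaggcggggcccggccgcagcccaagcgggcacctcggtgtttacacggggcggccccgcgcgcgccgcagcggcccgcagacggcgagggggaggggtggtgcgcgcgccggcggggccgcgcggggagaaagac
SOX6 internal start, chr11:16356547-16356796, minus strand: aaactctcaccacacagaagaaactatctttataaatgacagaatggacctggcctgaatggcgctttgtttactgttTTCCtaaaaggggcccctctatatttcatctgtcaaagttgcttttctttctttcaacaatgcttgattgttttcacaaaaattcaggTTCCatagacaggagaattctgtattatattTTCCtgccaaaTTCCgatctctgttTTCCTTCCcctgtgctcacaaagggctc

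GGAA was found at 6 places in the SOX4 window and 5 in the SOX13 window, and at 0 in that of SOX12. Of 35116 RefSeq windows of this length, 92.7% held GGAA on either strand, with a median of 3 places, so its presence sets no window apart. The SOX2 and SOX5 windows, not shown, held it once each. SOX5 had the largest log2 fold change of the tested members, 3.66 in ETS1-High against RFP. The 5 SOX6 windows held it 2 to 6 times, and the one shown held the most of them. No relation between these places and the changes in level was tested. GGAAGGAA, a tandem repeat that contains 2 of the GGAA cores and resembles the repeats bound by EWSR1::FLI1, was found in the SOX6 internal window shown and in no other window of the members. It occurred in 3.06% of all windows. The longer ETS consensus CCGGAAGT was in 0 of the 10 windows of the members and in 3.42% of all. The SOX sites ACAAAG and ACAATG (both strands) were in 13.7% and 9.29% of all windows, and were found in the windows of 3 members. ACAAAG occurred once in the SOX2 window and at 2 places in the SOX6 internal window shown, and ACAATG at 2 places in the SOX5 window and once each in the SOX6 internal window shown and 1 other SOX6 window. Gene-level counts do not tell which start is used, and no binding was measured.

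Of the 10 members, 8 passed the filter on low counts and were tested, and SOX8 and SOX10 were too low. In ETS1-High against RFP, 7 of the 8 were called at an adjusted p under 0.05 (edgeR quasi-likelihood test, Benjamini-Hochberg adjustment over 17235 genes), 3 higher and 4 lower, where 74.2% of all tested genes were called, 37.0% higher and 37.2% lower. In ETS1-Low against RFP all 8 were called, 2 higher and 6 lower, against 74.1% of all genes, 37.9% higher and 36.2% lower. Between ETS1-High and ETS1-Low all 8 were called, 6 higher and 2 lower, against 59.2%, 29.9% higher and 29.3% lower. Among genes with at least 10 counts in every library, 77.4%, 77.5% and 65.1% were called in the 3 comparisons. The shares of members called rest on 8 genes and were not tested against the shares of all genes. Most genes were called in every comparison. At 2-fold or more, ETS1-High had 2 members higher than RFP (SOX5 and SOX6) and 1 lower (SOX13), where 9.64% of all genes were higher, 11.4% lower and 21.0% either. ETS1-Low had 1 higher (SOX5) and 2 lower (SOX9 and SOX11), where 8.47% of all genes were higher, 12.2% lower and 20.6% either. Between the ETS1 groups 1 was higher in ETS1-High (SOX11) and 1 lower (SOX13), where 6.05% of all genes were higher, 3.69% lower and 9.74% either. The CPM of the compared groups did not overlap for 7, 8 and 7 of the 8 members in these 3 comparisons, beside 75.5%, 76.0% and 63.2% of all genes. The median log2 fold change of the tested members was -0.36, -0.31 and 0.37, beside -0.01, 0.01 and 0.00 over all tested genes. The RFP libraries serve both comparisons with RFP, whose values for a gene are given side by side and are not independent.

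**Figure D1:**
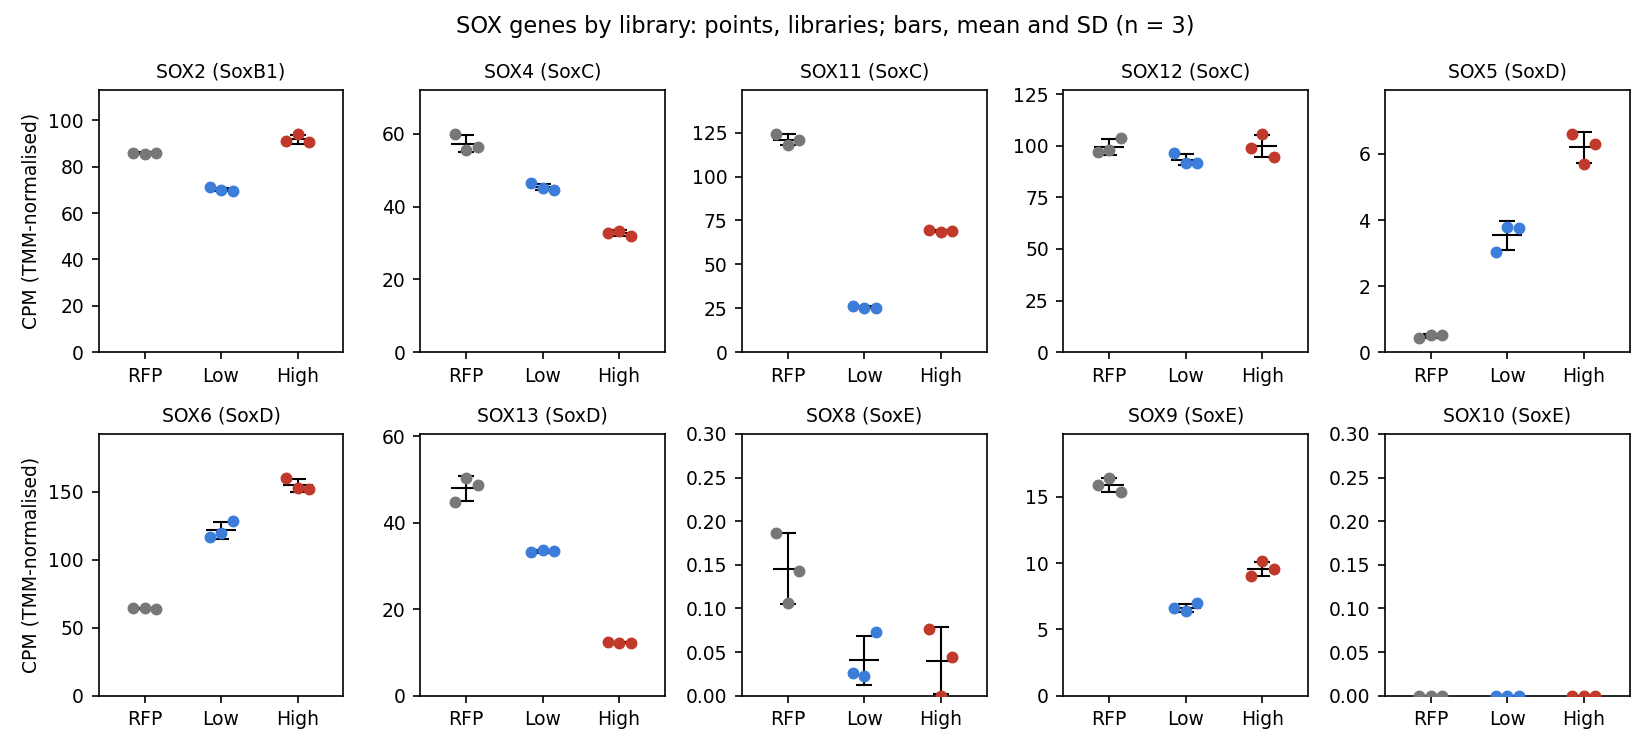
CPM (TMM-normalised, linear axes that start at 0) of the 10 SOX genes in the RFP, ETS1-Low and ETS1-High libraries. Points are libraries and bars are the mean and SD of 3. SOX5 and SOX6 climb from RFP to ETS1-High, SOX4 and SOX13 descend, SOX11 and SOX9 are lowest in ETS1-Low, and SOX10 lies at 0 in all 9 libraries.

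SOX2 (ENSG00000181449.3; chromosome 3, 181711925 to 181714436, plus strand, inside the span of the noncoding gene SOX2-OT), a factor of pluripotent and neural stem cells, was lower in ETS1-Low than in either other group. Its level was 86.1, 85.7 and 86.0 CPM in the RFP libraries, 71.1, 69.97 and 69.7 CPM in ETS1-Low and 91.0, 94.1 and 90.6 CPM in ETS1-High. The 3 groups did not overlap. SOX2 fell by 0.29 on the log2 scale in ETS1-Low against RFP (SE 0.03; adjusted p 1.89e-11, edgeR) and ETS1-High stood 0.39 above ETS1-Low (SE 0.03; adjusted p 4.29e-15, edgeR). Against RFP, ETS1-High was higher by only 0.10 (SE 0.03; adjusted p 0.00505, edgeR). That small difference depended on the scaling: it was 0.04 with upper-quartile factors (adjusted p 0.28, edgeR) and -0.01 on the log2(FPKM + 1) scale (adjusted p 0.816, limma). All 9 expected counts of SOX2 were non-whole, so reads shared with other genes enter its level, which is uncertain to that extent.

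SOX2-OT, the long noncoding RNA that spans SOX2 on the same strand, had 23 to 73 counts per library, or 1.26 ± 0.29 CPM (SD, n = 3) for RFP, 0.68 ± 0.15 for ETS1-Low and 0.99 ± 0.14 for ETS1-High. In ETS1-Low it fell by 0.90 on the log2 scale (adjusted p 0.000635, edgeR), and the log2 fold change of -0.33 for ETS1-High did not pass (adjusted p 0.166, edgeR). SOX9-AS1, the other noncoding neighbour found by its symbol among 7 looked for, had at most 2 counts in any library.

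Among the SoxC genes, SOX11 (ENSG00000176887.6; chromosome 2, 5692384 to 5701385, plus strand), which promotes neuronal maturation, had the largest difference between groups. It had 124.2, 118.1 and 120.8 CPM in the RFP libraries, 26.3, 25.1 and 25.3 CPM in ETS1-Low and 69.3, 68.7 and 68.9 CPM in ETS1-High. ETS1-Low was the lowest group and ETS1-High lay between it and RFP, with no overlap. SOX11 was 4.74-fold lower in ETS1-Low than in RFP (log2 fold change -2.24, SE 0.04; adjusted p 3.57e-45, edgeR). In ETS1-High it was 1.75-fold lower than in RFP (log2 fold change -0.81, SE 0.03; adjusted p 3.12e-28, edgeR) and 2.7-fold higher than in ETS1-Low (1.43, SE 0.04; adjusted p 3.56e-35, edgeR). Its level therefore did not follow the order of ETS1 over the 3 groups. Exons of SOX11 overlap a noncoding gene on the same strand, and 4 of its 9 expected counts were non-whole.

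SOX4 (ENSG00000124766.6; chromosome 6, 21593751 to 21598619, plus strand), the SoxC gene widely expressed in progenitors and tumours, fell in steps. It had 59.9, 55.5 and 56.5 CPM in RFP, 46.4, 45.2 and 44.7 CPM in ETS1-Low and 32.8, 33.4 and 31.9 CPM in ETS1-High. No library overlapped with one of another group. The log2 fold change was -0.34 (SE 0.04; adjusted p 2.75e-11, edgeR) in ETS1-Low and -0.81 (SE 0.04; adjusted p 1.21e-24, edgeR) in ETS1-High against RFP. From ETS1-Low to ETS1-High it fell by 0.47 (SE 0.04; adjusted p 8.66e-15, edgeR). SOX4 exons overlap a noncoding gene on the opposite strand. Per the labels the libraries were stranded, but whether strand entered the counting is not given in the sources used here.

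SOX12 (ENSG00000177732.8; chromosome 20, 325552 to 330224, plus strand), the third SoxC gene, was nearly level. It had 96.8, 97.7 and 103.7 CPM in RFP, 96.5, 91.7 and 91.7 CPM in ETS1-Low and 99.1, 105.6 and 94.7 CPM in ETS1-High. The ranges of ETS1-High and RFP overlapped, and those of ETS1-Low and RFP were barely apart. The log2 fold change in ETS1-High against RFP was 0.01 (SE 0.04; adjusted p 0.893, edgeR), with a 95% interval from -0.06 to 0.08, and its sign changed between settings. ETS1-Low differed from RFP by -0.09 (adjusted p 0.0191, edgeR). ETS1-High differed from ETS1-Low by 0.10 (adjusted p 0.0176, edgeR). Neither held when single libraries were left out. The first became -0.06 (adjusted p 0.152, edgeR) without RFP replicate 3, -0.08 (adjusted p 0.0951, edgeR) without ETS1-Low replicate 2 and -0.08 (adjusted p 0.0912, edgeR) without ETS1-Low replicate 3. The other became 0.06 (adjusted p 0.204, edgeR) without ETS1-High replicate 2, 0.09 (adjusted p 0.0798, edgeR) without ETS1-Low replicate 2 and 0.09 (adjusted p 0.0771, edgeR) without ETS1-Low replicate 3.

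The SoxD genes moved in opposite directions. SOX5 (ENSG00000134532.16; chromosome 12, 23529504 to 24562544, minus strand), which with SOX6 supports SOX9 in cartilage and acts in neural crest and neurons, had 20, 25 and 25 counts in RFP, 115, 171 and 154.19 in ETS1-Low and 260, 256 and 282 in ETS1-High. As CPM these are 0.49 ± 0.06, 3.54 ± 0.43 and 6.20 ± 0.46 (SD, n = 3). The groups did not overlap, and the order was that of ETS1. SOX5 was 7.25-fold higher in ETS1-Low than in RFP (log2 fold change 2.86, SE 0.17; adjusted p 2.65e-21, edgeR) and 12.7-fold higher in ETS1-High (3.66, SE 0.15; adjusted p 4.16e-27, edgeR). The step between the ETS1 groups was 0.80 (SE 0.11; adjusted p 2.13e-08, edgeR). On the log2(FPKM + 1) scale, where changes of low genes come out smaller, the difference in ETS1-High against RFP was 1.17, in ETS1-Low against RFP 0.77 and between the ETS1 groups 0.40. FPKM values of SOX5 ran from 0.08 to 0.21 in RFP although its counts there were 20 to 25.

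SOX6 (ENSG00000110693.17; chromosome 11, 15966449 to 16739591, minus strand), the closest relative of SOX5, was already abundant in RFP and rose further. It had 64.5, 64.2 and 63.7 CPM in RFP, 116.8, 119.4 and 128.3 CPM in ETS1-Low and 160.3, 152.5 and 151.7 CPM in ETS1-High. All ETS1-Low libraries lay above RFP and all ETS1-High libraries above ETS1-Low. The log2 fold change against RFP was 0.92 (SE 0.03; adjusted p 3.55e-29, edgeR) in ETS1-Low and 1.27 (SE 0.03; adjusted p 1.7e-35, edgeR) in ETS1-High. Between the ETS1 groups it was 0.35 (SE 0.03; adjusted p 2.26e-13, edgeR).

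SOX13 (ENSG00000143842.14; chromosome 1, 204073115 to 204127743, plus strand), the third SoxD gene and a known partner of Wnt-pathway TCF factors, fell most in ETS1-High. It had 44.7, 50.4 and 48.6 CPM in RFP, 33.1, 33.8 and 33.4 CPM in ETS1-Low and 12.3, 12.2 and 12.2 CPM in ETS1-High. The order was the reverse of that of ETS1, without overlap. SOX13 was 1.43-fold lower in ETS1-Low (log2 fold change -0.52, SE 0.04; adjusted p 8.11e-16, edgeR) and 3.92-fold lower in ETS1-High (-1.97, SE 0.05; adjusted p 2.85e-37, edgeR) than in RFP. ETS1-High was 2.73-fold below ETS1-Low (-1.45, SE 0.05; adjusted p 5.65e-30, edgeR).

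Among the SoxE genes, SOX9 (ENSG00000125398.6; chromosome 17, 72121020 to 72126416, plus strand), the master factor of cartilage and an early neural crest gene, was the only one with more than 9 counts in a library. It had 15.9, 16.4 and 15.4 CPM in RFP, 6.61, 6.36 and 6.96 CPM in ETS1-Low and 9.01, 10.1 and 9.56 CPM in ETS1-High. As with SOX11, ETS1-Low was lowest and ETS1-High lay between, without overlap. SOX9 was 2.40-fold lower in ETS1-Low (log2 fold change -1.26, SE 0.07; adjusted p 1.32e-21, edgeR) and 1.66-fold lower in ETS1-High (-0.73, SE 0.07; adjusted p 8.39e-14, edgeR) than in RFP. ETS1-High was 0.53 above ETS1-Low on the log2 scale (SE 0.08; adjusted p 4e-08, edgeR).

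SOX8 (ENSG00000005513.9; chromosome 16, 981770 to 986979, plus strand) had 9, 5 and 7 counts in RFP, 1, 1 and 3 in ETS1-Low and 3, 0 and 2 in ETS1-High. These counts were under the filter, so the gene was not tested. The 21 counts of RFP in sum, scaled to library size, were 3.77 times the 5 of ETS1-High (exact 95% interval 1.38 to 12.8) and 3.61 times the 5 of ETS1-Low (1.33 to 12.3). SOX10 (ENSG00000100146.16; chromosome 22, 37970686 to 37987422, minus strand), the factor of glia and melanocytes, had 0 counts in all 9 libraries, which allows up to 0.0626 CPM in RFP, 0.0731 in ETS1-Low and 0.0700 in ETS1-High at 3 counts. These floors and intervals cover counting error only.

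**Figure D2:**
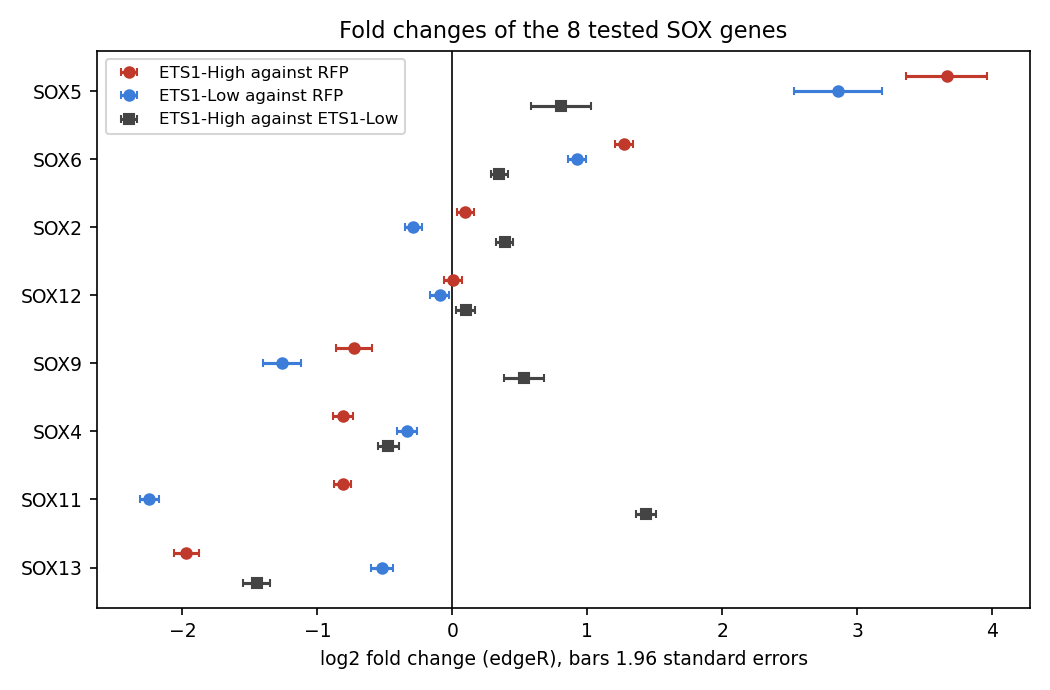
Log2 fold changes of the 8 tested SOX genes (x axis, linear) in ETS1-High against RFP (red circles), ETS1-Low against RFP (blue circles) and ETS1-High against ETS1-Low (grey squares), with 95% intervals from the edgeR fit as bars. SOX5 lies farthest to the right at 3.66 and SOX11 in ETS1-Low farthest to the left at -2.24, and SOX12 stays between -0.09 and 0.10.

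Levels were compared between genes on the FPKM scale, which is set per length. In RFP the order was SOX2 at 38.9, SOX12 at 23.6, SOX13 at 19.2, SOX11 at 14.96, SOX6 at 13.3, SOX4 at 10.7, SOX9 at 4.48, SOX5 at 0.14 and SOX8 at 0.05 FPKM, and no neighbours in it overlapped between libraries. In ETS1-Low SOX6 moved to the second place with 23.3 FPKM, behind SOX2 at 28.97, while SOX11 dropped behind SOX4 to 2.88 FPKM. In ETS1-High SOX2 remained first with 38.7 FPKM, followed by SOX6 at 28.7 and SOX12 at 22.02. SOX13, the third in RFP, stood sixth there at 4.49 FPKM, behind SOX11 at 7.93 and SOX4 at 5.66. Neighbours in these orders did not overlap either, apart from SOX8 and SOX10 in ETS1-High. Orders close to one another, such as SOX11 and SOX6 in RFP, also rest on the gene lengths that RSEM used.

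**Figure D3:**
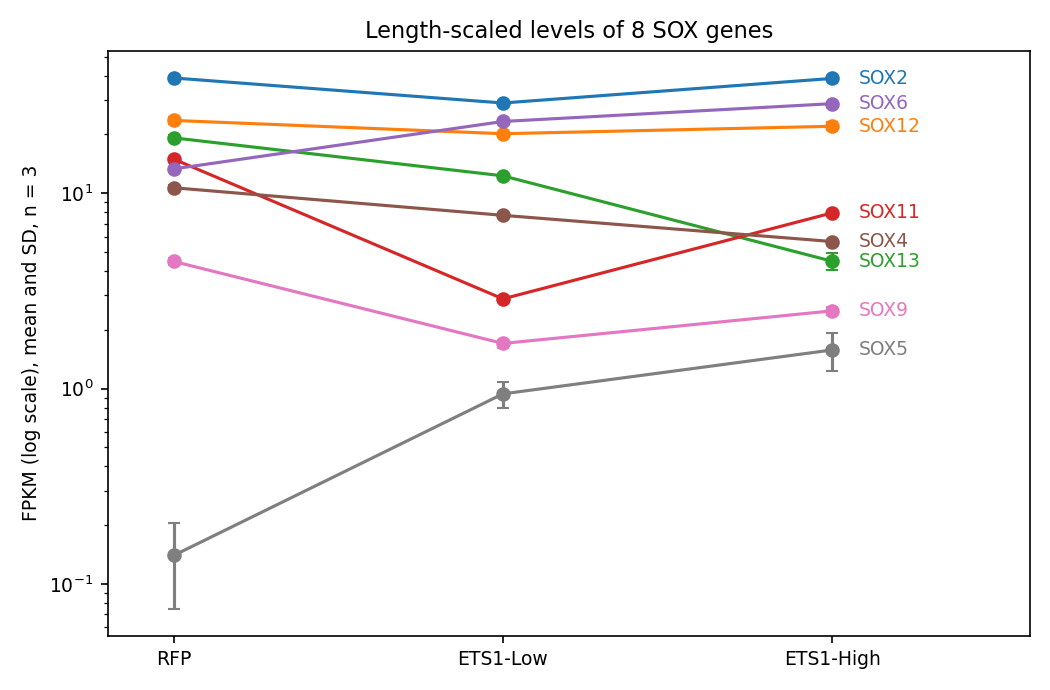
FPKM on a log axis for 8 SOX genes in the RFP, ETS1-Low and ETS1-High groups, as mean and SD of 3 libraries, where lines join the same gene and do not stand for a time course. SOX6 passes SOX12 and SOX13 while SOX13 goes from 19.2 to 4.49 FPKM, and SOX2 is first in each group.

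Each SOX gene was set beside its neighbours, the other expressed genes within 10 Mb of its start. The 39 neighbours of SOX11 had median log2 fold changes against RFP of 0.37 (ETS1-High) and 0.34 (ETS1-Low), the opposite direction to SOX11. The 55 neighbours of SOX6 had medians of 0.24 and 0.32, so SOX6 stood 1.03 above them in ETS1-High and 0.60 in ETS1-Low. The 87 neighbours of SOX13 had medians of -0.20 and -0.25, and SOX13 stood 1.77 below them in ETS1-High but only 0.27 below in ETS1-Low. Around SOX2, SOX4, SOX5, SOX9 and SOX12 the local medians against RFP lay between -0.06 and 0.08. Between the ETS1 groups the local medians of all 8 lay between -0.07 and 0.05. The part of regional shifts in the values of the SOX genes was not tested.

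**Figure D4:**
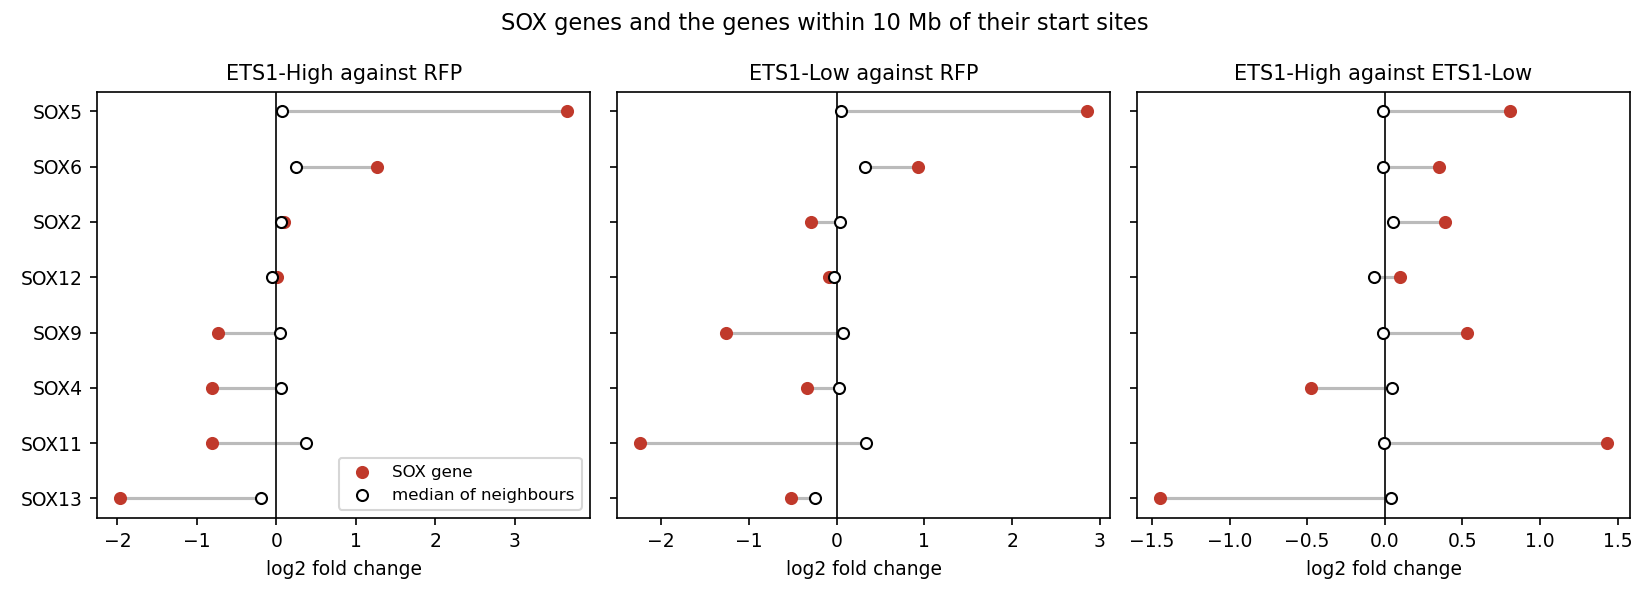
Log2 fold change of each tested SOX gene (filled points) beside the median over other expressed genes within 10 Mb of its start (open points), in the 3 comparisons. Open points lie near 0 for most genes and are shifted with the gene for SOX6 and SOX13 and against it for SOX11 in the comparisons with RFP.

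The genes whose pattern over the 9 libraries was most like that of a member were taken by Pearson's r of log2(CPM + 1), among named genes averaging 100 counts or more, for members called at 2-fold or more in any comparison. With 3 groups behind the 9 libraries, many genes reach a high r, and the values are a description. For SOX5 they were CFLAR (r = 0.998), a caspase-8 inhibitor, and DSEL (r = 0.997). For SOX6 they were SLC5A3 (r = 0.998), an inositol transporter, and STAT6 (r = 0.998), a cytokine-response factor. For SOX11 they were NREP (r = 0.999) and ERV3-1 (r = 0.999). For SOX13 they were DNM1 (r = 0.9995), the neuronal dynamin, which went from 101.8 CPM (RFP) over 72.4 (ETS1-Low) to 26.1 (ETS1-High), and KCNG1 (r = 0.998), a potassium channel subunit. For SOX9 they were PAPD4 (r = 0.998), a poly(A) polymerase, and RASD2 (r = 0.997). Pearson's r does not measure the size of a change. PAPD4 changed less than SOX9, from 58.1 CPM (RFP) over 45.5 (ETS1-Low) to 50.5 (ETS1-High).

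The other SOX genes of the family were examined as a group of 9. SOX3 (chromosome X, 140502985 to 140505069, minus strand), a SoxB1 gene of neural progenitors, had 493, 502 and 484 counts in RFP, 1, 0 and 0 in ETS1-Low and 2, 1 and 3 in ETS1-High. Summed and scaled to library size, RFP had 221 times the 6 counts of ETS1-High (exact 95% interval 101 to 604, counting error only) and 1273 times the 1 count of ETS1-Low (interval from 228). The adjusted p was 1.34e-34 for ETS1-High and 9.91e-35 for ETS1-Low (edgeR). Its 41 neighbours had local medians of 0.06 (ETS1-High) and -0.52 (ETS1-Low) against RFP. SOX1 (chromosome 13, 112067149 to 112071706, plus strand), the other SoxB1 gene, was above SOX2 on the FPKM scale in each group (62.2 against 38.9 FPKM in RFP). Its CPM was 156.7 ± 3.37 (SD, n = 3) for RFP, 252.5 ± 4.13 for ETS1-Low and 273.8 ± 3.65 for ETS1-High. It rose by log2 fold changes of 0.69 and 0.81 against RFP (adjusted p 1.42e-26 and 1.49e-29, edgeR), and all its expected counts were non-whole. The 3 SoxB1 genes thus differed in direction: SOX1 was higher, SOX3 nearly lost and SOX2 within 0.29 of RFP on the log2 scale.

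SOX7 had 7 to 35 counts per library and was lower in ETS1-High than in RFP (log2 fold change -1.23, SE 0.34; adjusted p 0.00132, edgeR), while in ETS1-Low its log2 fold change of -0.55 did not pass (adjusted p 0.117, edgeR). Its exons overlap PINX1 on the same strand. SOX15, SOX18, SOX21 and SOX30 had at most 10 counts in any library, and SOX14 and SOX17 had 0 in all 9. The SoxF genes of endothelium were thus at or near 0 in these cells, apart from the low level of SOX7.

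Genes that SOX factors are known to act with or on were taken from general knowledge, as lists. The lists were chosen with earlier results of these data known. Each gene of a list said to have risen or fallen passed the edgeR test at an adjusted p under 0.05 in the comparison named. The counts stand beside shares over all tested genes of 37.0% higher and 37.2% lower in ETS1-High, and 37.9% higher and 36.2% lower in ETS1-Low, against RFP. Of 15 partners and neural stem targets of SOX2, 9 were tested. In ETS1-High against RFP 3 were higher and 5 lower, and in ETS1-Low 3 were higher and 4 lower, with medians of -0.20 and -0.33. NES, the intermediate filament nestin of neural progenitors, fell from 40.7 ± 0.53 CPM (SD, n = 3) to 2.26 ± 0.18 in ETS1-Low and 1.09 ± 0.20 in ETS1-High. FABP7, a fatty acid binding protein of radial glia, had 18697 to 19487.95 counts in RFP and 1 to 3 in ETS1-High, a ratio of 8604 (exact 95% interval 3953 to 23447, counting error only). LIN28A, an RNA-binding protein of stem cells, had 1084 to 1235 counts in RFP and 0 in ETS1-High, where it was at least 339-fold lower at a floor of 3 counts per library. PROM1, a stem cell surface protein, had 47 to 70 counts in RFP and 0 to 5 in ETS1-High. Other genes of the list went the other way. SALL4, a pluripotency factor, rose from 0.75 ± 0.15 CPM (SD, n = 3) to 3.86 ± 0.24 in ETS1-Low and 7.48 ± 0.39 in ETS1-High. PAX6, a factor of neural progenitors and the eye, rose from 5.79 ± 0.50 to 14.9 ± 1.15 and 22.3 ± 1.05 CPM. SOX2 itself differed from RFP by 0.10 in ETS1-High and -0.29 in ETS1-Low.

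Of 12 neuronal targets of SOX4 and SOX11, 8 were tested, and all 8 were called in both comparisons with RFP, where 74.2% (ETS1-High) and 74.1% (ETS1-Low) of all genes were. In ETS1-Low 7 were lower and 1 higher, with a median of -2.53 on the log2 scale. In ETS1-High 6 were lower and 2 higher, with a median of -0.98. From ETS1-Low to ETS1-High 6 were higher, 1 lower and 1 did not pass, with a median of 0.78. Over all genes 29.9% were higher and 29.3% lower in that comparison. TUBB3, the neuronal beta-tubulin, had 55.6 ± 1.53 CPM (SD, n = 3) in the RFP libraries, 8.93 ± 0.25 in ETS1-Low and 18.1 ± 0.39 in ETS1-High, the same order of groups as SOX11. SOX4, the other factor of the list, had a different order, lowest in ETS1-High. The share of all genes with the order of SOX11 is not given here. DCX, doublecortin of migrating neurons, had 73.7 ± 3.68 CPM in RFP, 0 to 4 counts per library in ETS1-Low and 11 to 16 in ETS1-High. MAP2, a dendritic microtubule protein, had 236 to 259.27 counts in RFP and at most 10 in a library of either ETS1 group. STMN1, a microtubule-destabilising protein, was higher in both ETS1 groups, by 0.31 in ETS1-High and 0.44 in ETS1-Low on the log2 scale, and TEAD2 in ETS1-High by 0.14. ELAVL3, a neuronal RNA-binding protein, fell in ETS1-High by 1.06 on the log2 scale (adjusted p 0.00577, edgeR), although the CPM of its ETS1-High libraries (7 to 35 counts) overlapped with that of RFP (36 to 66 counts).

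Of 16 cartilage targets of SOX9, SOX5 and SOX6, 9 were tested. In ETS1-High against RFP 2 were higher, 4 lower and 3 did not pass, with a median of -0.19, and in ETS1-Low 1 was higher, 6 lower and 2 did not pass, with a median of -1.37. COL11A1, a fibrillar collagen chain, had 253.3 ± 10.2 CPM (SD, n = 3) in the RFP libraries, 43.0 ± 1.44 in ETS1-Low and 119.0 ± 3.81 in ETS1-High. COL27A1, another fibrillar collagen chain of cartilage, had 78.9 ± 0.42, 30.4 ± 1.51 and 36.3 ± 1.70 CPM in the same order of groups. Both had the order of groups of SOX9, lowest in ETS1-Low. How many of all genes share this order is not given here. SOX5 and SOX6, the other factors of the list, rose in both ETS1 groups. Unlike COL11A1 and COL27A1, COL9A3 rose, from 6.93 ± 0.98 CPM to 40.8 ± 1.58 and 40.9 ± 0.48 CPM. The main cartilage collagen gene COL2A1 was at 0.31 CPM or less in each group.

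Of 18 glial and melanocyte targets of SOX10, which itself had no counts, 11 were tested. In ETS1-High against RFP 4 were higher and 5 lower, with a median of 0.06, and in ETS1-Low 4 were higher and 6 lower, with a median of -0.60. NRCAM, a neuronal adhesion molecule, fell from 13.9 ± 0.99 CPM in RFP to 1.80 ± 0.12 in ETS1-Low and 0.56 ± 0.18 in ETS1-High (SD, n = 3). RET, the GDNF receptor kinase, was at 0.69 ± 0.24 CPM in RFP, 0.45 ± 0.10 in ETS1-Low and 6.80 ± 0.54 in ETS1-High. ETS1-High stood 9.83-fold above RFP and 14.95-fold above ETS1-Low (adjusted p 3.89e-24 and 1.08e-24, edgeR), while ETS1-Low was lower than RFP by 0.60 (adjusted p 0.0264, edgeR) with overlapping libraries. EGR2, a factor of myelinating glia, rose from 0.92 ± 0.08 CPM to 7.08 ± 0.43 in ETS1-Low and 4.21 ± 0.74 in ETS1-High. PMEL, a melanosome protein, fell from 1.51 ± 0.26 to 0.68 ± 0.17 and 0.68 ± 0.12 CPM.

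All 12 neural crest specifiers that stand beside SOX9 and SOX10 were tested. In ETS1-High against RFP 6 were higher and 5 lower, with a median of 0.33, and in ETS1-Low 5 were higher and 6 lower, with a median of -0.12. TFAP2A, an inducer of neural crest genes, rose from 14.6 ± 0.91 CPM (SD, n = 3) to 56.5 ± 1.09 in ETS1-Low and 79.5 ± 2.26 in ETS1-High. TWIST1, a mesenchymal factor, stood at 12.2 ± 0.59 CPM in the RFP libraries, 14.7 ± 0.31 in ETS1-Low and 47.2 ± 3.16 in ETS1-High. PAX7 rose from 1.45 ± 0.16 to 4.36 ± 0.16 and 5.02 ± 0.25 CPM. FOXD3, a factor of premigratory crest, fell from 24.4 ± 0.56 to 12.0 ± 0.12 and 6.48 ± 0.55 CPM. The lists are described by their counts and medians alone, and nothing is drawn from them about the SOX proteins.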

How the data were processed

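RNA-seq of 9 TC-32 libraries was analysed, 3 per group, grouped by sample title. The authors deposited RSEM expected counts per gene and RSEM FPKM values, per the file headers and names. The submitters' processing notes name cutadapt 4.4, STAR 2.7.3, featureCounts, Subread 2.0.3 and limma 3.38.3, with builds GRCh38 and hg38; the annotation release is not given in the sources used here. 0 columns were left without a library.

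Expected counts, which divide shared reads between genes (9.00% to 10.3% of values were not whole), were rounded and tested with the edgeR 4.0.16 quasi-likelihood test (robust) in R 4.3.3, after TMM scaling and filterByExpr by group, leaving 17235 genes, in 1 model of group over the 9 libraries. A call is an adjusted p under 0.05 (Benjamini-Hochberg over all genes tested). The standard error is the log2 fold change over the root of the F statistic. On simulated counts with 100 genes changed 2-fold and 100 changed 4-fold among 16981 tested in ETS1-High against RFP, 100 and 100 were recovered, with 5 false calls. In the data 74.2% of genes were called in this comparison, so scaling under so many changes was not tested by the simulation. Replicate pairs differed by 2.66 to 5.19 in chi-square per gene, where sampling noise gives about 1, and each library entered the test separately. This excess cannot tell separate cultures from separate preparations of the same culture. CPM uses TMM-normalised library sizes. A fold against a group at 0 is a bound at 3 counts per library, and for a few counts the ratio of summed counts is given with its exact interval.

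Positions are those of GENCODE v44 (GRCh38), which held 99.2% of tested genes by identifier. Neighbours are other tested genes within 10 Mb for which the log2 of the mean CPM over the 3 groups was above 1. Upstream windows come from RefSeq (GRCh38.p14). Members and lists were chosen with earlier results of these data known. The genes named are the members, the other SOX genes, ETS1, up to 4 genes per list with the largest change in ETS1-High against RFP among those called at 2-fold or more with a mean of at least 50 counts in a group, and the 2 genes most like each member called at 2-fold or more. COL2A1, SALL4, PAX6, STMN1, TEAD2, SOX2-OT, SOX9-AS1 and the cell type markers were named outside that rule, after their values were seen. Alternatives were DESeq2 1.42.0, other size factors and filters, a replicate block, 2-group fits, omission of each library in turn and limma 3.58.1 on FPKM.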

Additional observations from a re-analysis of the deposited data

Results flagged for a closer look

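ETS1-High and ETS1-Low, each set against RFP, differed from one another in all 8 tested SOX genes by the edgeR test of the difference itself. The log2 fold change of ETS1-High against ETS1-Low was 1.43 for SOX11, 0.80 for SOX5, 0.53 for SOX9, 0.39 for SOX2, 0.35 for SOX6 and 0.10 for SOX12. It was -1.45 for SOX13 and -0.47 for SOX4. The SOX12 difference is the one that was lost when single libraries were left out. Over all genes, 59.2% differed between these groups by the same test.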

How the results depend on the processing

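Each result was recomputed under 19 alternatives, or 17 for SOX5, which fell under the FPKM minimum. All 171 values of the counts of genes called and of members called stayed within 1.5 times the main value. Against RFP, members called ran from 5 to 7 in ETS1-High and from 7 to 9 in ETS1-Low. At 2-fold or more they ran from 2 to 3 in both. Between the ETS1 groups members called ran from 7 to 8, with 2 at 2-fold or more throughout. Of the values for single members, 429 kept their direction and their side of the threshold, 8 lost the call and 13 turned direction. SOX12 in ETS1-High against RFP, not called in any setting, turned in 10 of these. It went from 0.01 to -0.005657 with DESeq2 size factors, -0.05473 with upper-quartile factors, -0.01381 with at least 10 counts in every library and -0.001938 with DESeq2. It was -0.09533 in FPKM with a pseudocount of 1, with and without a filter, and -0.0991 with 0.1. Without single libraries it ran from -0.0332 to 0.04417. SOX2 in ETS1-High against RFP went from 0.10 to -0.01 under each of the 3 FPKM settings (-0.007668 with a pseudocount of 1, with and without a filter, and -0.007846 with 0.1), and to 0.04 with upper-quartile factors. The cause was not tested. SOX12 lost its call without single libraries, as given above, and in ETS1-High against ETS1-Low also in FPKM without a filter (0.12, adjusted p 0.0947, limma). Leaving out single libraries, the log2 fold changes of SOX12 ran from 0.06 to 0.14 between the ETS1 groups and, for ETS1-Low with RFP, from -0.11 to -0.06. SOX5 on the log2(FPKM + 1) scale gave 1.17 in place of 3.66 in ETS1-High against RFP. SOX8, under the filter, had adjusted p values against RFP of 0.0598 (ETS1-High) and 0.0695 (ETS1-Low) with no filter (edgeR), 0.147 and 0.153 with DESeq2, and 0.0142 and 0.0144 with limma on unfiltered FPKM. Among all genes called, 49.8% were higher in ETS1-High against RFP and 51.2% in ETS1-Low against RFP; unfiltered FPKM gave 38.1% and 36.5%. The replicate numbers do not mark a shared culture in the labels, and deviations of same-numbered libraries correlated at -0.11 to 0.15 (1 of 9 pairs over 0.1). With the replicate block 12701, 12729 and 10122 genes were called in place of 12785, 12773 and 10196, and 7, 8 and 8 members as before. Depth limits SOX8 and SOX10, at 9 counts or fewer.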
